A study of Mus musculus with 6 samples.

Results

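The T cell surface markers examined here were Thy1, Cd2, Cd4, Cd5, Cd6, Cd7, Cd8a, Cd8b1, Cd27 and Cd28. These 10 genes, of 21951 protein-coding genes in the annotation, were chosen by name for their place on the T cell surface. Their H3K4me3 peaks were read from ChIP-seq of 2 mouse cell lines. Scid.adh.2C2 is a T-cell progenitor line, a subclone of Scid.adh, which arose as a spontaneous thymic lymphoma in a CB17 mouse with the Prkdc scid mutation. The other line, called the pre-B line here and shown with its number in the figures, is an Abelson-transformed B-cell progenitor line. No treatment is named for either line. Each line had 2 H3K4me3 ChIP libraries and 1 input library, and the authors combined them into 1 peak list per line. Both lines are transformed, so that lineage, transformation and culture cannot be told apart as the source of a difference between them.

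Trimethylation of lysine 4 on histone H3 (H3K4me3) is placed around the start sites of transcribed or poised genes. At genes that are strongly used in a cell type, the mark often spreads from the transcription start site (TSS) into the gene body. The 10 genes encode proteins at the surface of T cells and serve as standard antibody targets for staging thymocytes. Thy1 encodes a lipid-anchored glycoprotein, and CD2 is an adhesion receptor. CD4 and the CD8 chains encoded by Cd8a and Cd8b1 are coreceptors, which bind MHC molecules and bring the kinase Lck to the T cell receptor. CD5 and CD6 are related scavenger-type receptors that dampen receptor signals, and CD5 is also a marker of the B-1 subset of B cells. CD7 is an immunoglobulin-type receptor, CD27 is a TNF receptor family member, and CD28 delivers the main costimulatory signal. The T-cell progenitor stage modelled by Scid.adh.2C2 is double-negative, that is, without surface CD4 and CD8.

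A promoter was taken as the 2500 bp either side of any annotated TSS of a gene, and a gene was called marked if at least 1 bp of such a window was inside a peak. In Scid.adh.2C2, Thy1, Cd2, Cd7 and Cd27 were marked, which was 4 of 10 genes, against 45.5% of all protein-coding genes. In the pre-B line, Cd5, Cd6 and Cd27 were marked, which was 3 of 10 genes, against 48.2% of all protein-coding genes. Marking in Scid.adh.2C2 alone was seen for Thy1, Cd2 and Cd7, and for 3.28% of all protein-coding genes. Cd5 and Cd6 were marked in the pre-B line only, a state that 5.96% of protein-coding genes had. Cd27 was marked in both lines by this definition (42.2% of protein-coding genes were). Cd4, Cd8a, Cd8b1 and Cd28 were marked in neither line (48.6%). Since the lists hold no value per replicate, no replicate error can be set beside these differences, and none was tested. Promoters without a listed peak may still carry the mark at a level under the thresholds of the authors.

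The lists contained 15513 peaks for Scid.adh.2C2 and 19604 for the pre-B line, and their median fold enrichment was 20.3 and 15.4. Fold enrichment is the authors' value at the summit of a peak over the background. Because the medians differ, the peaks of the members are given below with the percentile of their fold within their own list. Folds of other genes are given as listed, and equal folds in both lists do not mean equal standing. Promoter peaks were looked up for lineage markers to check the labels. Of 5 T progenitor genes (Gata3, Tcf7, Bcl11b, Cd3e and Ptcra), 5 were marked in Scid.adh.2C2 against 1 in the pre-B line. Of 4 B progenitor genes (Ebf1, Pax5, Cd79a and Vpreb1), 1 was marked in Scid.adh.2C2 against 4 in the pre-B line. The gene marked in both lines was Vpreb1. Its peak lay over the start of the overlapping gene Top3b and cannot be assigned to Vpreb1 alone. Of 5 genes of myeloid and natural killer cells, Spi1 was marked in both lines, and Csf1r, Itgam, Ncr1 and Klrb1c were marked in neither. The Spi1 peak was 7.09-fold enriched and 836 bp wide in Scid.adh.2C2, and 21.9-fold and 2953 bp in the pre-B line.

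**Figure D1:**
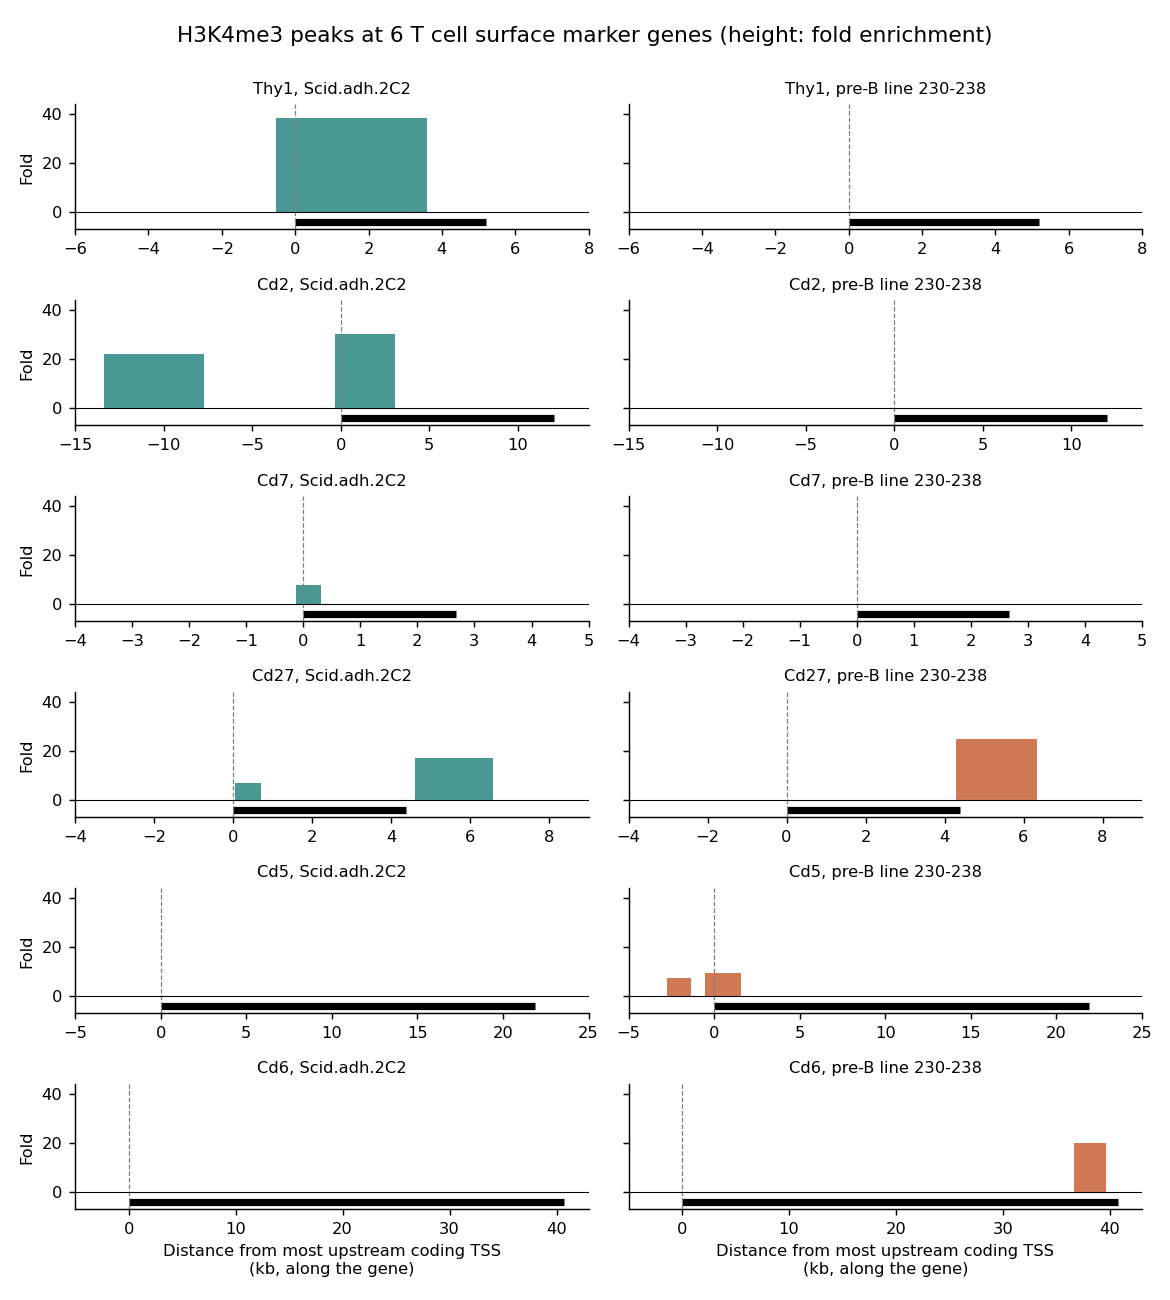
H3K4me3 peaks at the 6 marked T cell surface marker genes, with Scid.adh.2C2 on the left and the pre-B line on the right. The horizontal axis is the distance in kb from the most upstream coding TSS along the gene (dashed line), the height of each box is the fold enrichment of the peak, and the black bar is the annotated gene. Thy1 and Cd2 carry high and wide peaks in Scid.adh.2C2 only, Cd5 carries low peaks in the pre-B line only, and the Cd6 peak of the pre-B line lies near the 3′ end of the gene.

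Promoter sequences were at hand for Cd27, Cd5 and Cd8a, 3 of the 10 genes. They are shown because they were the ones available, and the 3 genes differ in state: a small own peak in Scid.adh.2C2 (Cd27), low peaks in the pre-B line (Cd5) and no peak in either line (Cd8a). The sequences are from RefSeq on GRCm38.p6 and run 5′ to 3′ up to the base before the TSS. The Cd5 sequence stops 28 bases earlier, where a longer annotated transcript begins. Capitals mark CpG dinucleotides, since H3K4me3 is commonly found at CpG-rich promoters.
Cd27 (chr6:125237028-125237277, minus strand): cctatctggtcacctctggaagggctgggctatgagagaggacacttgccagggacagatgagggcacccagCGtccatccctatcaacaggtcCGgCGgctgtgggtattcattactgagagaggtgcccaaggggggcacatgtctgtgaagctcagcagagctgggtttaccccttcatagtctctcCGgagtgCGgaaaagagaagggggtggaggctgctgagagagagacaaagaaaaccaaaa
Cd5 (chr19:10739003-10739224, minus strand): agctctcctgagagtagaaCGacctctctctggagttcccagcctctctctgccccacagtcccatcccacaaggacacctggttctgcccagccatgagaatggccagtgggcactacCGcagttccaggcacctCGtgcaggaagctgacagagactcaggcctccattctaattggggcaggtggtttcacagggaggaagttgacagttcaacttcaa
Cd8a (chr6:71373177-71373426, plus strand): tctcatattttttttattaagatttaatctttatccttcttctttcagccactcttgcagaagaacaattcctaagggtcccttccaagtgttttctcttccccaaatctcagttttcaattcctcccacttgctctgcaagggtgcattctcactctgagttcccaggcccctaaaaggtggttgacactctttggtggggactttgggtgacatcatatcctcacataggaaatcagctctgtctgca
The Cd27 sequence holds 5 CpG dinucleotides, the Cd5 sequence 3 and the Cd8a sequence 0. The median of all 32851 promoters of the table was 6 in the 250 bases before the TSS. By this count Cd27 was at percentile 49.6 of these promoters, near the middle, Cd5 at percentile 37.8 over its full 250 bases, and Cd8a at percentile 7.87. A set of 7 motifs was searched on both strands, namely the E-box CAGGTG, a second E-box with the letters CAGCTG, the ETS core AGGAAG, the RUNX core TGTGGT, the GATA motif AGATAA, the TCF motif CTTTGA and the TATA box TATAAA. The Cd5 sequence had 2 matches to CAGGTG, with their first bases at -174 and -69 from the TSS, and 2 matches to AGGAAG, at -109 and -52. CAGGTG is found in 17.2% and AGGAAG in 29.5% of all promoters of the table. The Cd27 and Cd8a sequences held none of the 7 motifs. A match to these letters is a description of the sequence and not a measured binding site.

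Thy1 (ENSMUSG00000032011) lies on the plus strand of chromosome 9 of GRCm38, from 44043384 to 44048579. Its peak in Scid.adh.2C2 spanned 44042864 to 44046984 and was 38.6-fold enriched, at percentile 97.1 of the list (−log10 p of 146). Among the 9980 protein-coding genes marked in this line, the highest promoter fold of Thy1 was at percentile 94.5. The peak was 4121 bp wide, at percentile 97.7 of all peak widths of the line, and contained 5 of the 6 annotated TSSs. Relative to the most upstream coding TSS it reached from -520 bp to 3600 bp, with its summit 1588 bp inside the gene, and 69.3% of the gene body was covered. Thy1 had thus the highest and widest promoter peak of the 10 genes in this line. In the pre-B line no peak was found over Thy1, and the nearest was 18422 bp from a Thy1 TSS, at the promoter of Usp2. The Usp2 peak was found in Scid.adh.2C2 as well.

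Cd2 (ENSMUSG00000027863), on the minus strand of chromosome 3 from 101275899 to 101287939, was the other gene with a high promoter peak in Scid.adh.2C2. This peak, from 101284873 to 101288279, was 30.4-fold enriched (percentile 81.5, −log10 p of 138) and 3407 bp wide (percentile 94.6). Most of it lay downstream of the TSS, where it covered 25.5% of the gene body. Among the marked protein-coding genes of this line, Cd2 was at percentile 66.7 by its highest promoter fold. Scid.adh.2C2 had a further peak that began 7716 bp upstream of Cd2, from 101295655 to 101301324. It was 22.0-fold enriched and 5670 bp wide, a width at percentile 99.6 of the list, and it reached no promoter window of a protein-coding gene. Both Cd2 peaks were absent from the list of the pre-B line, in which the peak nearest to a Cd2 TSS was 310108 bp away, at Ttf2. Between the nearest peaks of the pre-B line on either side of Cd2 lay 632 kb, with 9 Scid.adh.2C2 peaks and, by construction, none of the pre-B line. The 9 peaks were 5.83-fold to 30.4-fold enriched, with a median of 16.5, and 7 of them reached 10-fold. They included promoter peaks of both neighbouring genes of Cd2, Ptgfrn (16.5-fold) and Igsf3 (22.0-fold), which were marked in Scid.adh.2C2 only. For Thy1 the corresponding interval was 304 kb long and held 4 Scid.adh.2C2 peaks, of which 2 reached 10-fold. Intervals of this kind were examined after the peaks had been seen and were not tested.

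Cd7 and Cd27 had small peaks at their own TSSs in Scid.adh.2C2. Cd7 (ENSMUSG00000025163) lies on the minus strand of chromosome 11 from 121036747 to 121039418. Its peak, from 121039100 to 121039551, was 452 bp wide (percentile 9.30) and 7.88-fold enriched (percentile 14.1, −log10 p of 21.7), and it contained the only annotated TSS. Among the marked protein-coding genes of Scid.adh.2C2, Cd7 was at percentile 1.25 by its highest promoter fold. No peak was found at Cd7 in the pre-B line. The adjacent Sectm1b, which encodes a protein of the family that binds CD7, was marked in both lines.

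Cd27 (ENSMUSG00000030336) lies on the minus strand of chromosome 6 from 125232622 to 125237010, close to the 3′ neighbour Tapbpl and inside the annotated span of Vamp1 on the opposite strand. Its own peak in Scid.adh.2C2, from 125236301 to 125236971, was 671 bp wide and 7.07-fold enriched (percentile 9.80, −log10 p of 15.2). It began 39 bp downstream of the most upstream TSS. In the RefSeq promoter shown above, the 250 bases before the TSS were outside this peak. Another peak lay 217 bp beyond the 3′ end of Cd27 in Scid.adh.2C2, from 125230424 to 125232405, with 17.0-fold enrichment (percentile 41.5). It contained annotated TSSs of Tapbpl and Vamp1 and entered a Cd27 window because some non-coding transcripts of Cd27 are annotated as starting inside the gene. In the pre-B line the peak at these starts was the only one in a Cd27 window, from 125230679 to 125232719, with 24.8-fold enrichment (percentile 86.3). It covered 98 bp of Cd27 at the 3′ end, and was 4234 bp away from the nearest coding TSS. With only TSSs of protein-coding transcripts, Cd27 was marked in Scid.adh.2C2, with 7.07-fold enrichment, and unmarked in the pre-B line. Overlapping and antisense genes cannot be told apart by H3K4me3, which carries no strand.

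**Figure D2:**
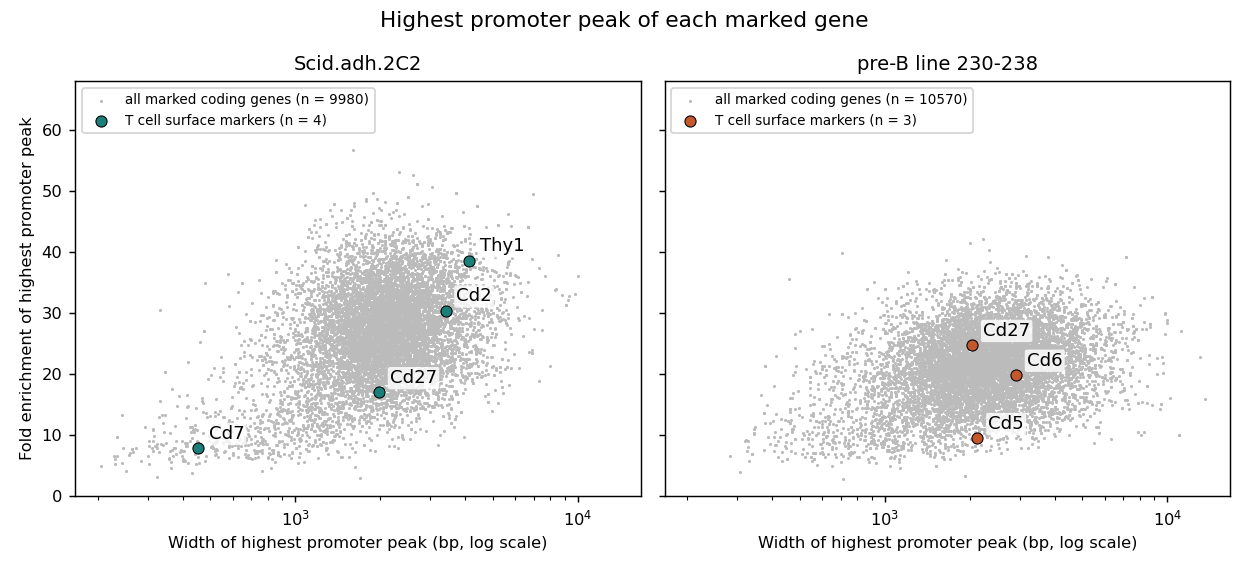
Fold enrichment against width (bp, log axis) of the highest promoter peak of each marked protein-coding gene (grey points) and of the marked T cell surface markers (coloured, named), in Scid.adh.2C2 on the left and the pre-B line on the right. Thy1 lies toward the high and wide end at 38.6-fold. Cd2 is wide, and its 30.4-fold enrichment is at percentile 66.7 of the marked genes. Cd7 lies in the low and narrow corner at 7.88-fold. The values plotted for Cd27 belong to the peak at the starts of Tapbpl and Vamp1.

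Cd5 and Cd6, neighbours on the minus strand of chromosome 19, were marked in the B-cell progenitor line and not in the T-cell progenitor line. Cd5 (ENSMUSG00000024669) lies from 10717116 to 10739002. In the pre-B line a peak from 10737407 to 10739535 contained 3 of its 4 TSSs. This peak was 2129 bp wide (percentile 67.8) and 9.50-fold enriched (percentile 23.6, −log10 p of 60.2). Its upstream edge was at -533 bp from the TSS, and it therefore covered the whole Cd5 promoter sequence shown above. A further peak, from 10740347 to 10741738, was 7.41-fold enriched (percentile 10.5). It began 1345 bp upstream and contained the start of the non-coding transcript A430093F15Rik. Among the 10570 protein-coding genes marked in the pre-B line, Cd5 was at percentile 2.70 by its highest promoter fold. In Scid.adh.2C2 the nearest peak was 32204 bp from a Cd5 TSS, at the promoter of Vps37c, which was marked in both lines.

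Cd6 (ENSMUSG00000024670), from 10789341 to 10830058, had no peak at its coding TSSs in either line. The peak that marked it in the pre-B line, from 10790470 to 10793386, was 2917 bp wide (percentile 84.8) and 19.9-fold enriched (percentile 67.7, −log10 p of 133). It lay near the 3′ end of the gene, 36470 bp from the nearest coding TSS, and contained the TSS of a single Cd6 transcript, which is annotated as a retained intron. No start of another annotated gene was inside this peak. With TSSs of protein-coding transcripts only, Cd6 was unmarked in both lines. The next gene, Slc15a3, a transporter gene, was also marked in the pre-B line only, with 19.5-fold enrichment. Between the nearest Scid.adh.2C2 peaks on either side lay 179 kb with both Cd5 and Cd6. This interval held 7 peaks of the pre-B line, 6.03-fold to 19.9-fold enriched, of which 2 reached 10-fold.

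The coreceptor genes and Cd28 carried no peak in any promoter window or over the gene body in either line. Cd4 (ENSMUSG00000023274) lies on the minus strand of chromosome 6 from 124864692 to 124888221. The peak nearest to it in Scid.adh.2C2 ended 366 bp from the 3′ end of the gene and was 24.2-fold enriched. It contained the TSS of the neighbour Gpr162, which was unmarked in the pre-B line, and was 23895 bp from the coding TSS of Cd4. Upstream of Cd4 both lines had a peak at a matching position, 15416 bp from the TSS in Scid.adh.2C2 (15.5-fold, percentile 37.7) and 15444 bp in the pre-B line (15.2-fold, percentile 49.0). It reached into the 3′ end of Lag3, a gene related to Cd4 that was itself unmarked in both lines.

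Cd8b1 (ENSMUSG00000053044) lies from 71322788 to 71337494, and Cd8a (ENSMUSG00000053977) from 71373427 to 71379173, on the plus strand of chromosome 6. No peak was found within 30 kb of either gene in either line. The peak nearest to a Cd8a TSS was at Rmnd5a, 65174 bp away in Scid.adh.2C2 and 65051 bp away in the pre-B line. For Cd8b1 the nearest peak was at Krcc1, 49498 bp and 49392 bp away. The fold enrichment of these flanking peaks was 25.1 (Rmnd5a) and 21.5 (Krcc1) in Scid.adh.2C2, and 23.0 and 18.1 in the pre-B line. The Cd8 pair thus lay without a peak between promoters that were marked in both lines. The gene nearest to Cd8b1, Smyd1 at 555 bp, was unmarked in both lines as well.

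Cd28 (ENSMUSG00000026012) lies on the plus strand of chromosome 1 from 60716800 to 60773359. Its coding TSS is 29558 bp downstream of the TSS of a non-coding transcript. The nearest peak was 299407 bp away in Scid.adh.2C2 (8.43-fold, at no coding promoter) and 149214 bp away in the pre-B line (13.2-fold, at Raph1). Its relatives Ctla4 and Icos, which lie downstream of Cd28 on the same strand and also encode costimulatory or inhibitory receptors, were unmarked in both lines. Of the 10 genes, Cd28 had the most distant nearest peak in Scid.adh.2C2.

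The CpG content of the peaks that marked the T cell surface genes was compared with that of all peaks of the line. Over the peak sequences of GRCm38, the Thy1 peak had 2.21 CpG per 100 bp (percentile 33.0 of the list) and the Cd2 promoter peak 1.50 (percentile 20.0). The own peaks of Cd7 and Cd27 had 1.11 (percentile 11.7) and 1.49 (percentile 19.8) in Scid.adh.2C2. In the pre-B line the Cd5 peaks had 1.41 and 1.08 (percentiles 25.3 and 15.9), and the Cd6 peak 1.30 (percentile 22.2). The median was 3.24 over all Scid.adh.2C2 peaks and 2.55 over all peaks of the pre-B line. Each of these peak values was below the median of its list, with the Thy1 peak at the highest percentile among them. The Cd6 peak lies far from the coding TSSs, and its value does not describe the Cd6 promoter.

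The nearest protein-coding genes on each side of the members, with Vamp1, which overlaps Cd27, were 17 distinct genes that are not members. Of these, 8 were marked in both lines (42.2% of all protein-coding genes were) and 4 in neither (48.6% of all). In Scid.adh.2C2 only, 3 of the 17 were marked (3.28% of all), namely Ptgfrn and Igsf3 beside Cd2, and Gpr162 beside Cd4. In the pre-B line only, 2 of the 17 were marked (5.96% of all), namely Slc15a3 beside Cd6 and Raph1 beside Cd28.

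Further genes of T cell recognition were counted to place the 10 surface markers. Of 8 genes of the CD3 complex, the pre-T cell receptor and its proximal kinases and adaptors, 8 were marked in Scid.adh.2C2 against 4 in the pre-B line. Cd3e, Cd3g, Cd247 and Ptcra were those marked in Scid.adh.2C2 only, the Cd3g peak being shared with the neighbouring Cd3d. Cd3e had 41.5-fold enrichment and a width of 4152 bp, close to the values of Thy1. Lck, the kinase that binds the tails of CD4 and CD8, was marked in both lines, while the coreceptor genes were not. Of 22 other T cell surface receptor genes, 11 were marked in Scid.adh.2C2 against 10 in the pre-B line, of which 7 were shared. These shares, 50% and 45.5%, were near those of all protein-coding genes (45.5% and 48.2%). Il2ra, the α chain of the interleukin-2 receptor, was marked in Scid.adh.2C2 only (21.8-fold, 4764 bp wide), as were Cd200, Cd96 and Cd226 (15.8-fold, 7.13-fold and 4.62-fold). Slamf1, Slamf6 and Pdcd1 were marked in the pre-B line only (11.7-fold, 11.0-fold and 8.75-fold).

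Of 15 genes for ligands and intracellular partners of the 10 receptors, 10 were marked in both lines, a state of 42.2% of all protein-coding genes. The pre-B line had 12 of these 15 genes marked (48.2% of all protein-coding genes). For Scid.adh.2C2 the count was 10 (45.5% of all). Cd48, which encodes the ligand of CD2, and Alcam, which encodes a ligand of CD6, were marked in the pre-B line only (27.7-fold and 12.1-fold). Cd2 itself was marked in Scid.adh.2C2 only, unlike Cd48. Cd6, by its peak near the 3′ end, was marked in the pre-B line only, like Alcam. Cd70 (the CD27 ligand) and Cd86 were unmarked in both lines, and Cd80, like Cd86 a CD28 ligand, was marked in both.

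For comparison, of 15 B cell surface genes, 3 were marked in Scid.adh.2C2 (45.5% of all protein-coding genes) against 12 in the pre-B line (48.2% of all). Of the 15, 9 were marked in the pre-B line only (5.96% of all) and 0 in Scid.adh.2C2 only (3.28% of all). Cd24a, Cd72 and Vpreb1 were those marked in both lines, and the shared peak of Vpreb1 lay over the start of the overlapping gene Top3b. Among the 10 T cell surface genes, 2 were marked in the pre-B line only and 3 in Scid.adh.2C2 only. With TSSs of protein-coding transcripts only, these counts were 1 and 4 (5.76% and 3.13% of all protein-coding genes), since Cd6 and the pre-B mark of Cd27 were lost. The T cell and B cell surface genes were not tested against each other, since both lists were chosen by name with earlier results known.

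**Figure D3:**
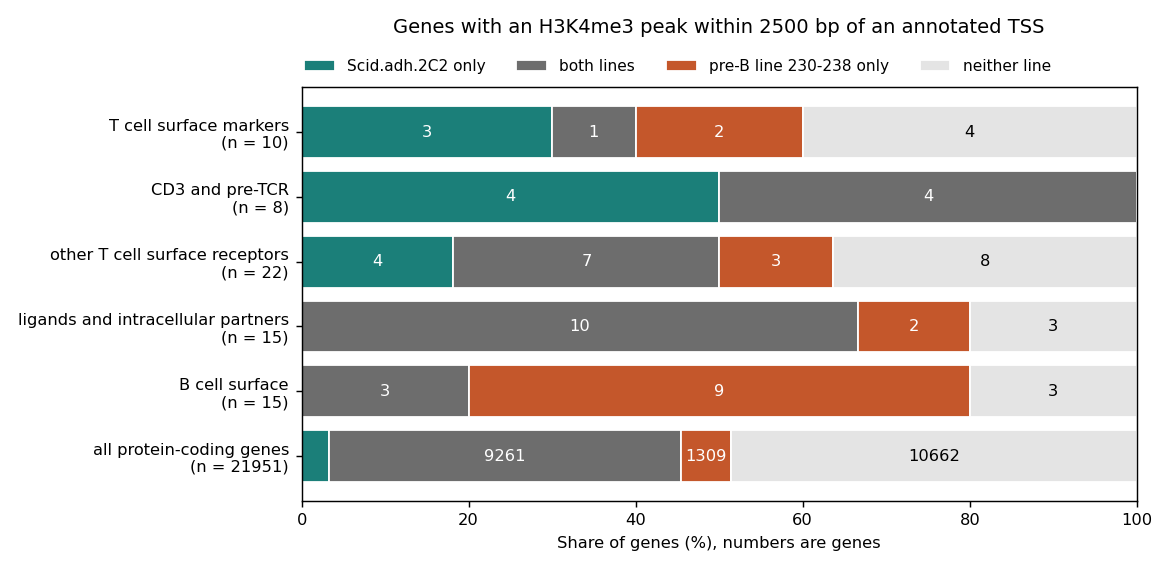
Share of genes (%) with a promoter peak in Scid.adh.2C2 only, in both lines, in the pre-B line only or in neither, for the 10 T cell surface markers, 4 other gene lists and all 21951 protein-coding genes. The numbers in the bars are genes. The T cell surface markers are spread over all 4 states (3, 1, 2 and 4 genes), while the 8 CD3 and pre-T cell receptor genes are all marked in Scid.adh.2C2. With TSSs of protein-coding transcripts only, the T cell surface markers had 4, 0, 1 and 5 genes in these states.

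Thy1, Cd2, Cd4, Cd8a, Cd8b1 and Cd28 had the same state under each of 9 other ways of drawing a promoter or filtering the peaks. Cd5 and Cd7 were unmarked in both lines when peaks of at least 10-fold enrichment were required. Cd6 was unmarked in both lines when only the most upstream TSS or only coding transcripts were used. Cd27 was marked in Scid.adh.2C2 only under 4 of the 9 alternatives.

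**Figure D4:**
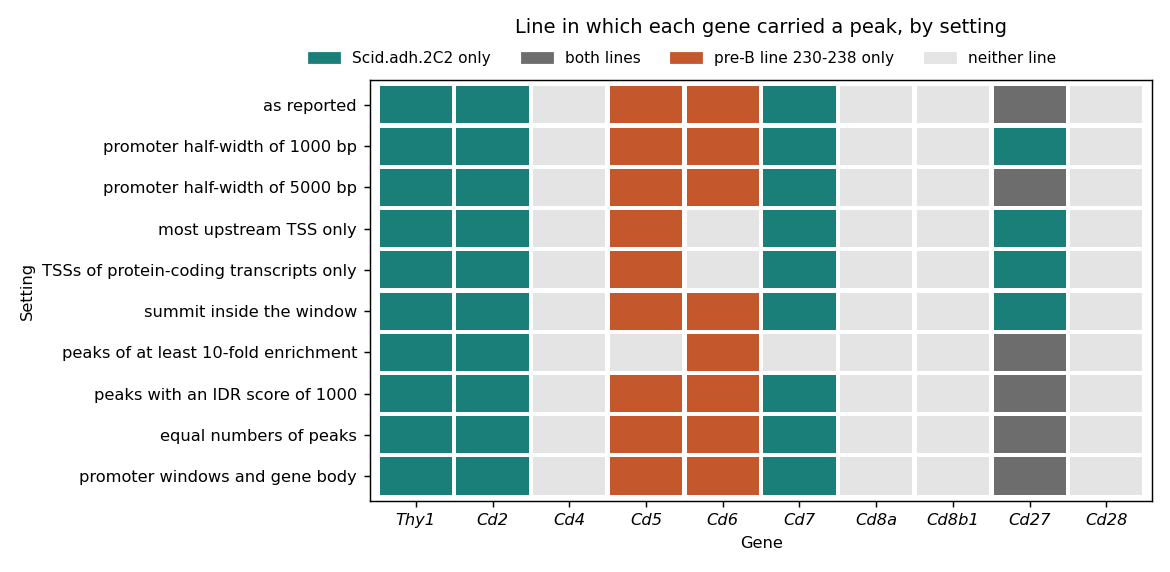
State of each T cell surface marker gene (columns) under the definition used here and the 9 alternatives (rows). Colours give the line or lines in which a peak was found, and Thy1 and Cd2 keep the colour of Scid.adh.2C2 in every row, while Cd27 changes in 4 rows.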

How the data were processed

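H3K4me3 ChIP-seq libraries of Scid.adh.2C2 and the pre-B line were used, with 2 ChIP libraries and 1 input library per line. Nothing states whether the replicates were separate cultures. Per the labels and the study's methods, the authors trimmed reads with Trim Galore (0.6.7), mapped them to mm10 (GRCm38) with Bowtie2 (2.4.4), called narrow peaks with MACS2 (2.2.7.1) against the matching input at a q-value of 0.05, and kept the optimal set at an irreproducible discovery rate (IDR) of 0.05. The authors deposited 1 combined list per line. Its IDR score, fold enrichment ratio and −log10 p-value were used as deposited. The files give no read counts, so that the depth is unknown and no interval or floor was computed.

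Genes and TSSs were from GENCODE M21 (GRCm38). The members and the gene lists were chosen with earlier results of these data known. The text names all members, their nearest protein-coding neighbours, genes sharing a member's peak, and genes of the lists marked in 1 line only, and other genes were named after their values were seen. Of the lists, 2 genes are not reported here and were left out of every list count. Samples were grouped by their titles, and no test was run because each line has 1 list. Alternatives were windows of 1000 bp or 5000 bp, other TSS sets, the summit inside the window, at least 10-fold enrichment, the top IDR score (1000), lists cut to the same number of peaks by −log10 p, gene bodies added, and merging of peaks within 1000 bp. The marking of promoters was checked on simulated peaks at genes far from any other gene's TSS, by the same overlap rule. Peaks shared between neighbouring genes were not part of this check. Python 3.11.15, numpy 2.4.6, pandas 2.3.3 and matplotlib 3.10.9 were used.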

Additional observations from a re-analysis of the deposited data

How the results depend on the processing

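With TSSs of protein-coding transcripts only, or with the most upstream TSS only, 1 gene (Cd5) was marked in the pre-B line, in place of 3. Of all protein-coding genes, 47.1% and 45.3% were marked in the pre-B line under these 2 settings, in place of 48.2%. Among the members, Cd5 was also the only 1 marked in the pre-B line alone, in place of 2, and 0 were marked in both lines, in place of 1. With peaks of at least 10-fold enrichment, 1 gene (Cd6) was marked in the pre-B line only, against 5.63% of all protein-coding genes. With a window of 1000 bp, or with the summit inside the window, 0 genes were marked in both lines. The other counts of marked genes were within 1.5 times of those reported. The highest promoter fold was taken again wherever a member stayed marked, so settings under which it lost its peak are left out. A kept peak keeps its deposited fold, so an unchanged value adds no support. Of 55 such values, 51 were unchanged. The other 4 were Cd27 in Scid.adh.2C2, at 7.07 in place of 17.0, when the peak of Tapbpl and Vamp1 was left out by the definition of the promoter. Merging peaks within 1000 bp joined the pair of Cd5 peaks of the pre-B line into 1 of 4332 bp. No paired analysis was possible because each line has 1 combined list, and for the same reason no replicate could be left out. The depth of the libraries is unknown, so that an unmarked promoter cannot be told apart from a level under the threshold.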
